A study of Rattus norvegicus with 12 samples.

Results

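The genes described here are 43 enzymes and carriers that handle fatty acids on their way to energy in the kidney, among the 14217 genes that carried a single symbol on the array. They were chosen by name, from lists of mitochondrial and peroxisomal oxidation, acyl-CoA enzymes and ketone metabolism. The rule uses no measured value, but the list was drawn up with earlier results of these data known. Each gene was read from 1 probe set, the one with the highest mean over the arrays, out of the 61 probe sets that carried a member's symbol. The study measured kidney RNA from 12 male Zucker rats, 1 Affymetrix Rat Genome 230 2.0 array per rat, in 4 groups of 3. Lean rats and obese rats ate ground chow for 12 weeks, either plain (control diet) or mixed with rosiglitazone to give 3 mg per kg of body weight. The labels call the animals a model for diabetes. They give no age and do not say which piece of the kidney was taken or how surrounding fat was removed. The obese Zucker rat, as background, lacks a working leptin receptor in all its tissues, so body type and receptor genotype go together in every comparison below. Rosiglitazone, a thiazolidinedione, activates the nuclear receptor PPARgamma.

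The proximal tubule, which reclaims most of the filtered salt, glucose and amino acids, draws much of its ATP from fatty acid oxidation. Long chains are first joined to coenzyme A by acyl-CoA synthetases, pass the inner mitochondrial membrane as carnitine esters, and are then shortened in a cycle of dehydrogenation, hydration, a further dehydrogenation and thiolysis. Electrons from the first step reach the respiratory chain through the electron transfer flavoprotein. Peroxisomes run a parallel cycle for very long, branched and bile acid side chains. Many of these genes are targets of PPARalpha, a relative of PPARgamma that binds, with its partner RXR, to pairs of the motif AGGTCA.

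Obese kidneys carried lower signals than lean kidneys for a broad set of these enzymes, with changes of -32.6% (Amacr) to -16.2% (Etfb) among the genes called lower. Over both diets 14 of the 42 members that could be tested fell in obese rats and 1 rose, at an adjusted p under 0.05 in limma. Of all 18625 probe sets tested, 6.62% were called lower and 7.69% higher in the same comparison. The 14 lay mainly in 3 roles, the mitochondrial acyl-CoA dehydrogenases (3 of 5), the enzymes that deal with double bonds (3 of 5) and peroxisomal oxidation (5 of 8). The carnitine shuttle (0 of 4), the enzymes of mitochondrial hydration and thiolysis (0 of 5) and the ketone enzymes (0 of 2) had no called member. The median log2 change of the 42 members was -0.15, against 0.027 for all probe sets tested, and 32 of them had a change below 0, against 45.3% of all probe sets. An unadjusted p under 0.05 was found for 21 members, against 28.1%. On both diets, each taken alone, every obese array lay below every lean array for 10 members, against 4.45% of all probe sets, and above for 1, against 5.5%. Rosiglitazone changed no member past the threshold, in lean rats, in obese rats or over both.

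The signals are MAS5 values on a linear scale, already brought to a common level on every array, and the number of arrays limits their precision. Changes are differences in log2(signal + 16) between group means, with the standard error (SE) of limma's fit over 4 group means, and p-values were adjusted by Benjamini-Hochberg over all probe sets tested within each of 7 comparisons. Each p-value measures a difference against the spread between the rats of a group. Groups are said not to overlap where every array of one lay above every array of the other, on each diet where both diets are combined. In whole tissue, fewer cells of a type and less RNA per cell cannot be told apart, and this holds for every value below. Levels of the members are compared only within a probe set, never from gene to gene. The sums of marker signals given for tissue identity are a rough guide only. The remaining member, Acot12, a cytosolic acetyl-CoA thioesterase, was too dim to pass the filter, with signals of 6.73, 10.8 and 6.7 in lean and 9.24, 6.17 and 8.16 in obese rats on control diet, and was not tested. Its signals on rosiglitazone were 18.3, 7.54 and 10.1 in lean and 8.33, 8.25 and 5.74 in obese rats. The members that could be tested spread by a pooled SD within groups of between 0.067 log2 units, for Scp2, and 0.45, for Acox3.

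Median signals lay between 204 and 239 on the 12 arrays, and the 3' to 5' signal ratio of Gapdh, a sign of RNA integrity, between 1.07 and 1.32. The bacteriophage cre spike-in, added in the lab and not part of the rat RNA, separated the arrays into a class of 5 with mean signals of 14654 to 15722 and a class of 7 with 10245 to 12164. The higher class held 4 lean arrays and 1 obese array, and no array of the obese rosiglitazone group, so this property of the arrays moved with body type. The counts of called members, and those of the main gene lists, are therefore also given from a fit that holds the class as a term. Most are also given from the 7 lower arrays alone. Tubular markers bore out the kidney label, with summed signals of the 24 measured proximal tubule genes between 133882 and 199841. Those of skeletal muscle and of the adrenal cortex were low, with sums of 111 to 678 over 4 genes and of 226 to 449 over 3 genes.

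**Figure D1:**
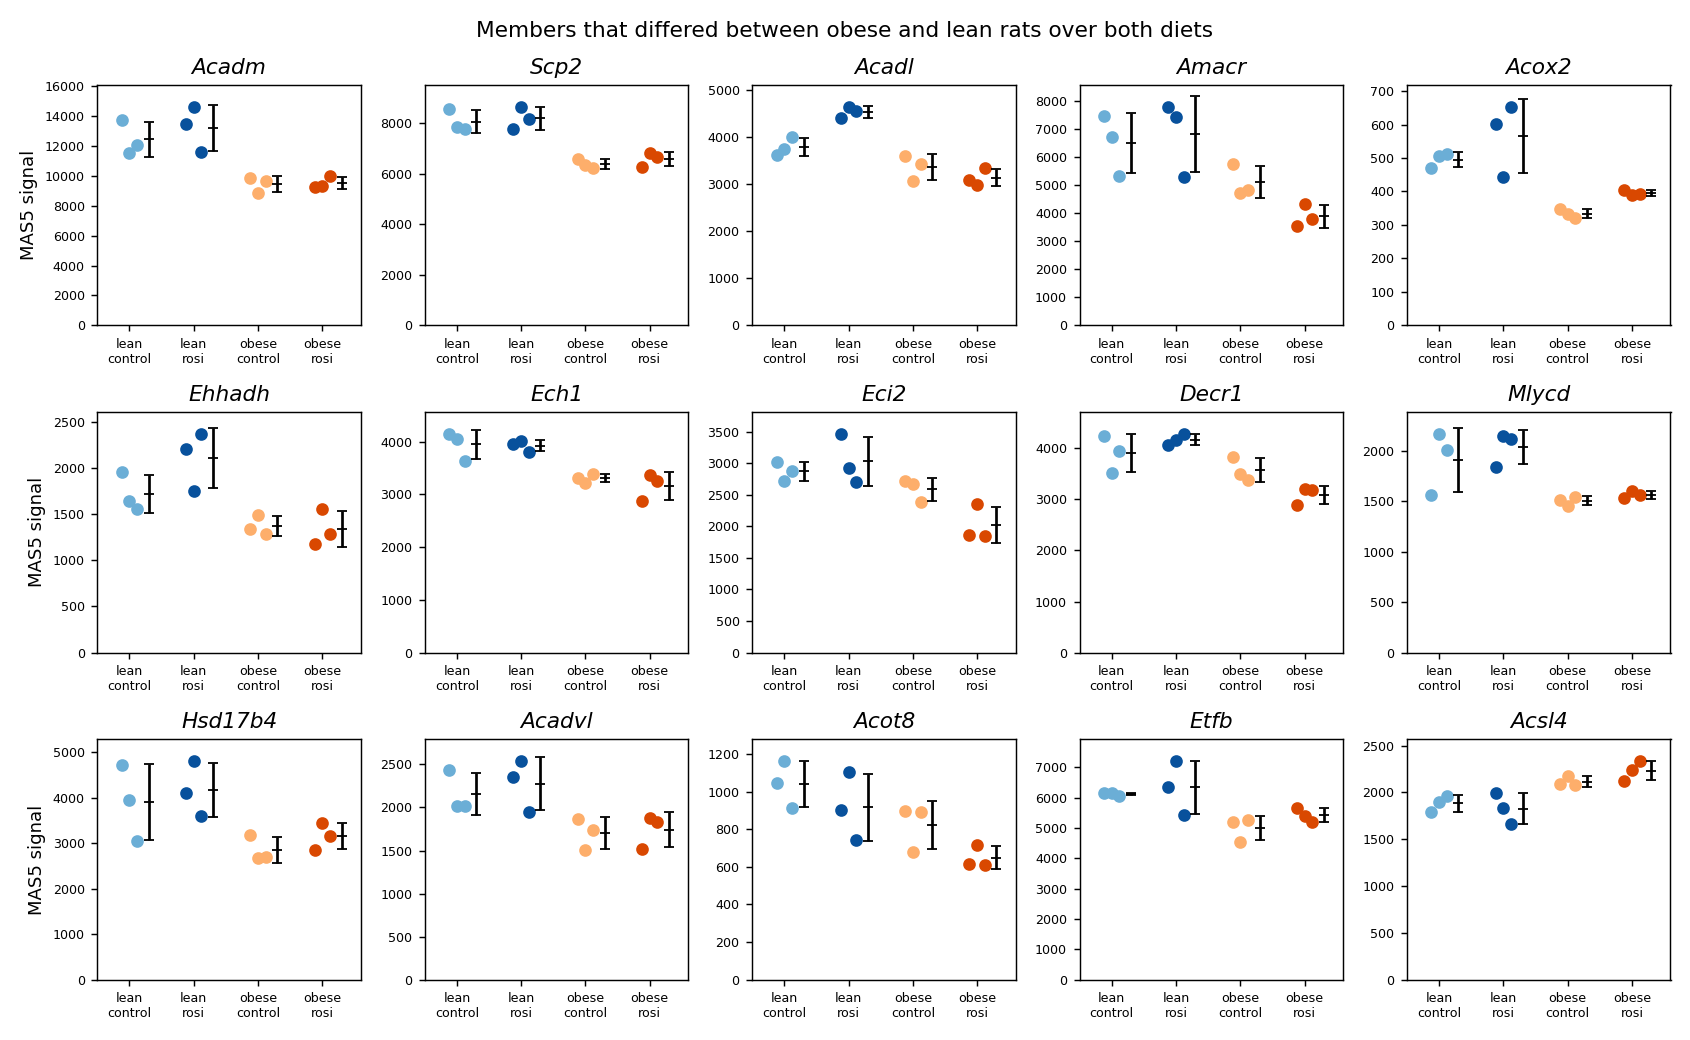
Linear MAS5 signal (vertical axes, each from 0) of the members that differed between obese and lean rats over both diets, by group on the horizontal axes. Points are single rats, and bars give the mean and SD of 3. Acadm, Scp2 and Acadl show no overlap between lean and obese arrays on either diet, while Acsl4 is the 1 gene that was higher in obese rats.

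The promoters of the members were searched for the motif AGGTCA, as a pair and alone. The pair, which PPARs bind, is the sequence feature most often named for this pathway. No exact pair was found in them, and the stretches shown, from 3 called genes, hold the single motif. RefSeq promoters on the GRCr8 assembly matched 38 of the 43 members, 12 of them among the 15 called genes, and the 250 bases upstream of each start were read on both strands. The paired motif AGGTCANAGGTCA (or TGACCTNTGACCT) was found in 0 of 38, and in 0.0508% of all 33469 promoters. Only exact matches were counted. Pairs with a changed base, such as those in the Acot8 stretch and the near Acadvl stretch below, were therefore left out. The single motif AGGTCA (or TGACCT), which is also part of the pair, was found in 7 of 38, and 14.1% of all promoters hold it. Among the called genes it was present in Acadvl, Acot8, Amacr and Hsd17b4, which is 4 of 12. The stretches of Amacr, Acadvl and Acot8 are printed, and that of Hsd17b4 is not. Below, capitals mark the motif, and each stretch is written 5' to 3' on the gene's own strand. Each ends before the start of transcription that its RefSeq promoter uses. The gene span of Acadvl, chr10:55231558-55236786, reaches upstream of that start, so its near site lies within the annotated gene. The stretch of Amacr lies at chr2:61673107-61673166 on the plus strand, those of Acadvl at chr10:55236842-55236901 and chr10:55236706-55236749 on the minus strand, and that of Acot8 at chr3:173962189-173962230 on the minus strand.
Amacr: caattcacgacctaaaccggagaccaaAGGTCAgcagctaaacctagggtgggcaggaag
Acadvl, far site: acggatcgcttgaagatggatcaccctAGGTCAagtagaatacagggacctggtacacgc
Acadvl, near site: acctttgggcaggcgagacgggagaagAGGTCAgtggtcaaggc
Acot8: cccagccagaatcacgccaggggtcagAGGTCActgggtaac
The motif begins in each case at the first capital letter. A match is a description of these letters only, and no binding was measured here.

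Medium-chain, long-chain and very-long-chain acyl-CoA dehydrogenase, which take the first electrons from acyl chains of their named lengths, all fell in obese kidneys. Acadm, the medium-chain enzyme, gave signals of 13738, 11488 and 12044 in lean and 9839, 8829 and 9612 in obese rats on control diet, and 13444, 14599.6 and 11564 in lean and 9266, 9343 and 9973 in obese rats on rosiglitazone. All 6 obese arrays lay below all 6 lean arrays. The change was -0.39 (SE 0.096, adjusted p = 0.0317) on control diet and -0.46 (SE 0.096, adjusted p = 0.0135) on rosiglitazone, and -0.43 (SE 0.068, adjusted p = 0.000944) over both. Its mean fell from 12423 ± 1172 in lean to 9427 ± 529.9 in obese rats on control diet (SD, n = 3), and the change over both diets amounted to -25.8%.

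Acadl, the long-chain enzyme, gave signals of 3622, 3749 and 3992 in lean and 3588, 3058 and 3434 in obese rats on control diet, and 4399, 4641 and 4545 in lean and 3096, 2982 and 3334 in obese rats on rosiglitazone. On rosiglitazone the 2 body types stood well apart, whereas on control diet the highest obese array lay just below the lowest lean array. The change was -0.53 (SE 0.084, adjusted p = 0.00293) on rosiglitazone and -0.35 (SE 0.059, adjusted p = 0.00149) over both diets, and -0.17 (adjusted p = 0.282) on control diet, where it did not pass. Acadvl, bound to the inner membrane and specific for the longest chains, gave signals of 2436, 2018 and 2021 in lean and 1863, 1501 and 1742 in obese rats on control diet, and 2349.9, 2538 and 1945 in lean and 1516, 1879 and 1836 in obese rats on rosiglitazone. Lean and obese arrays did not overlap on either diet, and the change over both diets was -0.36 (SE 0.090, adjusted p = 0.0159). The other dehydrogenases, Acads for short chains and Acadsb for short branched chains, had changes of -0.091 (adjusted p = 0.443) and -0.28 (adjusted p = 0.31) and did not pass.

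The enzymes that remove or move double bonds, needed to burn unsaturated fatty acids, all had negative changes over both diets, from -0.37 to -0.16, and 3 of 5 passed. Ech1, a dienoyl-CoA isomerase, gave signals of 4147, 4055 and 3643 in lean and 3317, 3222 and 3379 in obese rats on control diet, and 3959, 4007 and 3808 in lean and 2866, 3375 and 3262 in obese rats on rosiglitazone. No obese array reached the lowest lean array of its diet, and the change over both diets was -0.28 (SE 0.060, adjusted p = 0.00628). Eci2, an enoyl-CoA isomerase found in peroxisomes and mitochondria, gave signals of 3020.4, 2719 and 2880.2 in lean and 2711, 2663 and 2382 in obese rats on control diet, and 3462, 2921 and 2698 in lean and 1869, 2351 and 1850.4 in obese rats on rosiglitazone. The margin on control diet was small, with a highest obese array just under the lowest lean one, while the groups stood apart on rosiglitazone. Its change was -0.15 (adjusted p = 0.518) on control diet, -0.58 (SE 0.11, adjusted p = 0.0104) on rosiglitazone and -0.37 (SE 0.081, adjusted p = 0.00801) over both.

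Decr1, the mitochondrial dienoyl-CoA reductase, gave signals of 4245, 3519 and 3954 in lean and 3837, 3502 and 3384 in obese rats on control diet, and 4057, 4171 and 4282 in lean and 2888, 3194 and 3179 in obese rats on rosiglitazone. Lean and obese arrays overlapped on control diet and did not on rosiglitazone. The change was -0.13 (adjusted p = 0.485) on control diet, -0.43 (SE 0.088, adjusted p = 0.0126) on rosiglitazone and -0.28 (SE 0.062, adjusted p = 0.00874) over both. Eci1, the mitochondrial isomerase, and Decr2, the peroxisomal reductase, had changes of -0.27 (adjusted p = 0.0769) and -0.16 (adjusted p = 0.127) over both diets and did not pass.

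Peroxisomal oxidation held 5 called members of 8, all lower in obese rats. Scp2, whose gene encodes sterol carrier protein and the thiolase of branched chains, gave signals of 8568, 7840.3 and 7747 in lean and 6575, 6345 and 6212 in obese rats on control diet, and 7756, 8642 and 8155 in lean and 6264, 6827 and 6651 in obese rats on rosiglitazone. The 6 obese arrays lay below the 6 lean arrays. The change was -0.33 (SE 0.076, adjusted p = 0.0233) on control diet, -0.31 (SE 0.076, adjusted p = 0.0302) on rosiglitazone and -0.32 (SE 0.054, adjusted p = 0.00132) over both. A further probe set of Scp2 had a change of -0.086 over both diets (adjusted p = 0.32), so the gene's probe sets differ. The mean of these probe sets changed by -0.20 over both diets (adjusted p = 0.0117). That mean did not pass on control diet (adjusted p = 0.108) or on rosiglitazone (adjusted p = 0.0989).

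Amacr, a racemase that prepares branched chains and bile acid precursors for oxidation, gave signals of 7441, 6722 and 5323 in lean and 5746, 4699 and 4827 in obese rats on control diet, and 7783, 7425 and 5276 in lean and 3552, 4333 and 3780.01 in obese rats on rosiglitazone. The groups overlapped on control diet and stood apart on rosiglitazone, where the obese signals were the lowest of the series. The change was -0.34 (adjusted p = 0.243) on control diet, -0.79 (SE 0.15, adjusted p = 0.00955) on rosiglitazone and -0.57 (SE 0.11, adjusted p = 0.00335) over both. Acox2, the branched-chain acyl-CoA oxidase, gave signals of 469, 505 and 512 in lean and 349, 332 and 322 in obese rats on control diet, and 602, 443 and 653 in lean and 406, 389 and 393 in obese rats on rosiglitazone. Both obese groups lay below both lean groups, with SDs of 13.5 and 8.97 around means of 334 and 396 in the obese rats. The change was -0.55 (SE 0.14, adjusted p = 0.0427) on control diet, -0.48 (adjusted p = 0.0683) on rosiglitazone, and -0.51 (SE 0.10, adjusted p = 0.00381) over both.

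Ehhadh, the peroxisomal enzyme that hydrates and dehydrogenates in turn, gave signals of 1954, 1648 and 1555 in lean and 1334, 1495 and 1286 in obese rats on control diet, and 2209.96, 1749.8 and 2369 in lean and 1173, 1559 and 1283 in obese rats on rosiglitazone. Lean and obese arrays did not overlap on either diet. The change was -0.32 (adjusted p = 0.217) on control diet, -0.65 (SE 0.14, adjusted p = 0.014) on rosiglitazone and -0.48 (SE 0.096, adjusted p = 0.00413) over both. Hsd17b4, the other bifunctional enzyme, which serves branched chains, gave signals of 4725, 3949 and 3057 in lean and 3175, 2685 and 2689.8 in obese rats on control diet, and 4099.98, 4804 and 3609 in lean and 2860.02, 3439 and 3160.3 in obese rats on rosiglitazone. The arrays overlapped on control diet and not on rosiglitazone, and the change over both diets was -0.42 (SE 0.10, adjusted p = 0.0156). Phyh, which starts the oxidation of phytanic acid, the peroxisome division gene Pex11a and the oxidase Acox3 did not pass, with changes of -0.093, -0.056 and 0.11.

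**Figure D2:**
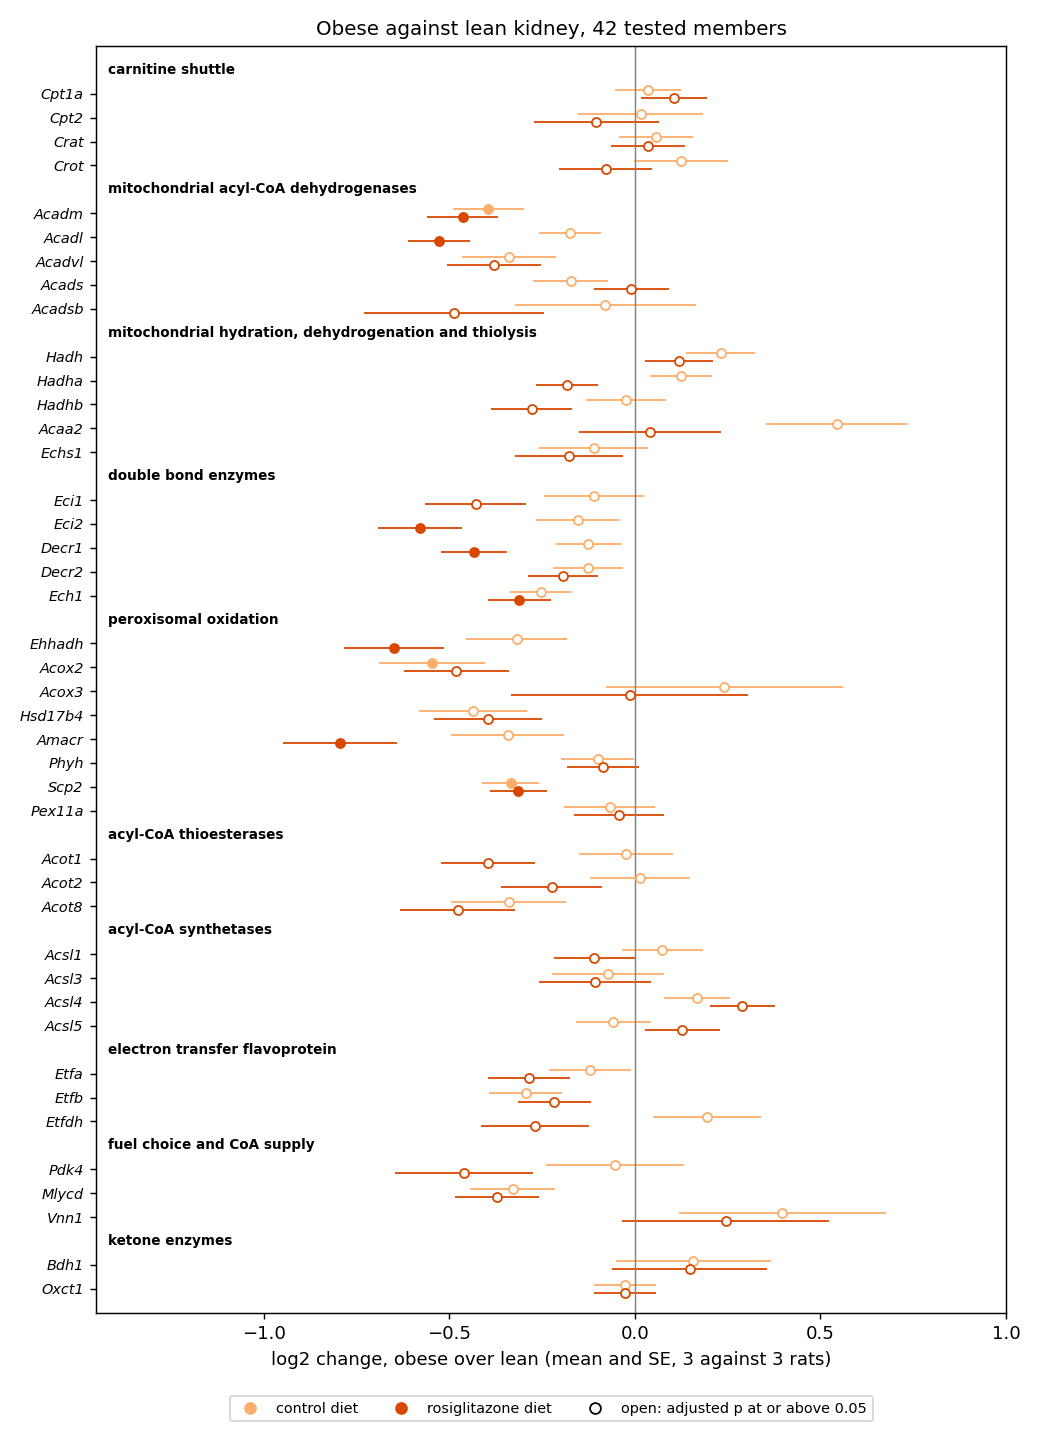
Log2 change of each tested member in obese against lean rats (horizontal axis, log2 units), on control diet and on rosiglitazone, with members on the vertical axis in order of role. Bars give the SE of the fit and open symbols an adjusted p at or above 0.05; 27 of 42 members lie below 0 on both diets, and the filled symbols, 3 on control diet and 8 on rosiglitazone, all lie below 0.

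Mlycd, which breaks down malonyl-CoA, the inhibitor of carnitine palmitoyltransferase, gave signals of 1557, 2164 and 2007 in lean and 1509.5, 1455 and 1543 in obese rats on control diet, and 1837, 2142 and 2118 in lean and 1526, 1605 and 1563 in obese rats on rosiglitazone. The obese arrays were close together and below every lean array of their diet, though the lowest lean array on control diet was near them. The change over both diets was -0.35 (SE 0.080, adjusted p = 0.01). Etfb, the beta subunit of the electron transfer flavoprotein, gave signals of 6145, 6155 and 6069 in lean and 5192, 4548 and 5263 in obese rats on control diet, and 6361, 7206 and 5446 in lean and 5657, 5404 and 5192 in obese rats on rosiglitazone. Its arrays stood apart on control diet and overlapped on rosiglitazone, and the change over both diets was -0.26 (SE 0.070, adjusted p = 0.0244). That call was lost in 10 of 23 alternatives, among them quantile normalization, median centring and plain eBayes. The alpha subunit Etfa had a change of -0.20 (adjusted p = 0.102) and the ubiquinone reductase Etfdh of -0.037 (adjusted p = 0.857).

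Acot8, the peroxisomal acyl-CoA thioesterase, gave signals of 1045, 1161 and 915 in lean and 896, 676 and 893 in obese rats on control diet, and 900.2, 1103 and 745 in lean and 613, 717 and 611 in obese rats on rosiglitazone. Lean and obese arrays did not overlap on either diet, and the change over both diets was -0.41 (SE 0.11, adjusted p = 0.0231). That call was lost in 8 of 23 alternatives, among them median centring and the omission of single arrays. Acot1, in the cytosol, and Acot2, in mitochondria, are near-identical genes whose probes may not tell them apart. Their changes were -0.21 (adjusted p = 0.14) and -0.11 (adjusted p = 0.518). Further probe sets of Acot2 had changes over both diets of 0.52 (adjusted p = 0.162) and -0.20 (adjusted p = 0.196), so the gene's probe sets differ in direction.

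Acsl4, a synthetase with a preference for arachidonic acid, was the 1 member that rose, and is named for that after its values were seen. Its signals were 1792, 1894 and 1966 in lean and 2088, 2179 and 2082 in obese rats on control diet, and 1993, 1829.6 and 1659 in lean and 2126, 2237 and 2334 in obese rats on rosiglitazone. All obese arrays lay above all lean arrays, and the change over both diets was 0.23 (SE 0.062, adjusted p = 0.0245). The call was lost in 7 of 23 alternatives, among them median centring, plain eBayes and the omission of single arrays, with adjusted p-values from 0.0176 to 0.138 over all of them. Acsl1, the main synthetase of oxidative tissues, Acsl3 and Acsl5 had changes of -0.018, -0.090 and 0.035 and did not pass. Under quantile normalization 2 members were called higher, Acsl4 and Hadh, the mitochondrial hydroxyacyl-CoA dehydrogenase, at 0.29 (adjusted p = 0.0046). With the deposited scaling the value of Hadh was 0.18 (adjusted p = 0.0898), which did not pass.

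The members outside these calls had smaller or more scattered values. In the carnitine shuttle, Cpt1a, the entry point for long chains, had a change of 0.070 over both diets, Cpt2 of -0.044, Crat of 0.046 and Crot of 0.023, with adjusted p-values from 0.52 to 0.901. The trifunctional protein, which carries out the later steps on long chains, had changes of -0.029 for its alpha subunit Hadha and -0.15 for its beta subunit Hadhb. Echs1, the short-chain hydratase, had a change of -0.14. Acaa2, the medium-chain thiolase, had signals of 1489, 1849.8 and 1468 in lean and 2407, 2094 and 2514 in obese rats on control diet, and 1383, 2778 and 1715 in lean and 1856, 2064 and 1872 in obese rats on rosiglitazone. On control diet its obese arrays all lay above the lean ones, with a change of 0.54 (adjusted p = 0.132), while on rosiglitazone the change was 0.040. Pdk4, which shuts off glucose oxidation, and Vnn1, which releases pantothenate from coenzyme A breakdown, had changes of -0.26 (adjusted p = 0.223) and 0.32 (adjusted p = 0.316). The ketone enzymes Bdh1 and Oxct1, which turn hydroxybutyrate and acetoacetate back into acetyl-CoA, had changes of 0.15 (adjusted p = 0.549) and -0.027 (adjusted p = 0.812).

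The same contrast within each diet gave fewer calls. On control diet 3 members fell, Acadm, Scp2 and Acox2, and 0 rose, where 2.58% of all probe sets were called lower and 2.15% higher. Of 24 alternatives run for this diet, Acadm passed in 14, Scp2 in 14 and Acox2 in 11. An unadjusted p under 0.05 was found for 13 members, against 18.9% of all probe sets, and 28 had a change below 0, against 45.7%. The obese and lean arrays did not overlap for 11 members that were lower and 5 that were higher in obese rats, against 11.2% and 14.4% of all probe sets. On rosiglitazone 8 members fell and 0 rose, where 2.6% of all probe sets were called lower and 2.41% higher. These 8 were Acadm, Acadl, Scp2, Amacr, Ehhadh, Ech1, Eci2 and Decr1. Acadl passed in all 23 alternatives run for this diet, whereas Scp2 passed in 10 and Ech1 in 4. Here 21 members had an unadjusted p under 0.05, against 19.7% of all probe sets, and 34 had a change below 0, against 46.5%. There 19 members were lower without overlap and 1 was higher, against 10.4% and 13% of all probe sets. The median change was -0.076 on control diet and -0.22 on rosiglitazone, where all probe sets had medians of 0.026 and 0.023. The first was -0.11 without lean control replicate 2, and the second was -0.13 without obese rosiglitazone replicate 1. Within the lower spike-in class, with 1 lean array on each diet, they were -0.14 and -0.15. Of the 42 members, 27 had a negative change on both diets, as did 30.4% of all probe sets, and 7 had a positive one on both, against 38.2%. The contrasts on the 2 diets rest on different rats, and the difference between them was tested as an interaction, given below.

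These counts moved with single arrays and with the spike-in class. Without obese control replicate 2 or without obese control replicate 3, 0 members were called on control diet, and 1 was without lean control replicate 1 or without obese control replicate 1. On rosiglitazone 3 were called without obese rosiglitazone replicate 1. There were 5 without lean rosiglitazone replicate 1, obese rosiglitazone replicate 2 or obese rosiglitazone replicate 3. Calls over all probe sets fell as well. On control diet 882 became 325 without obese control replicate 2 and 331 without obese control replicate 3. Without lean control replicate 1 they numbered 385, and without obese control replicate 1 they numbered 546. On rosiglitazone 932 became 486 without obese rosiglitazone replicate 1 and 531 without lean rosiglitazone replicate 1. Without obese rosiglitazone replicate 2 or 3 they numbered 474 and 518. With the class as a covariate, 3 members fell on control diet and 6 on rosiglitazone. Over both diets 10 fell and 1 rose in that fit. The 4 that no longer passed were Hsd17b4 at -0.24 (adjusted p = 0.0746), Acadvl at -0.25 (adjusted p = 0.0954), Acot8 at -0.26 (adjusted p = 0.14) and Etfb at -0.19 (adjusted p = 0.101). Within the lower class alone, with 2 lean arrays, 1 on each diet, and 5 obese arrays, 6 fell, Acadm, Acadl, Scp2, Acox2, Decr1 and Mlycd, and these 6 passed under every alternative run over both diets.

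**Figure D3:**
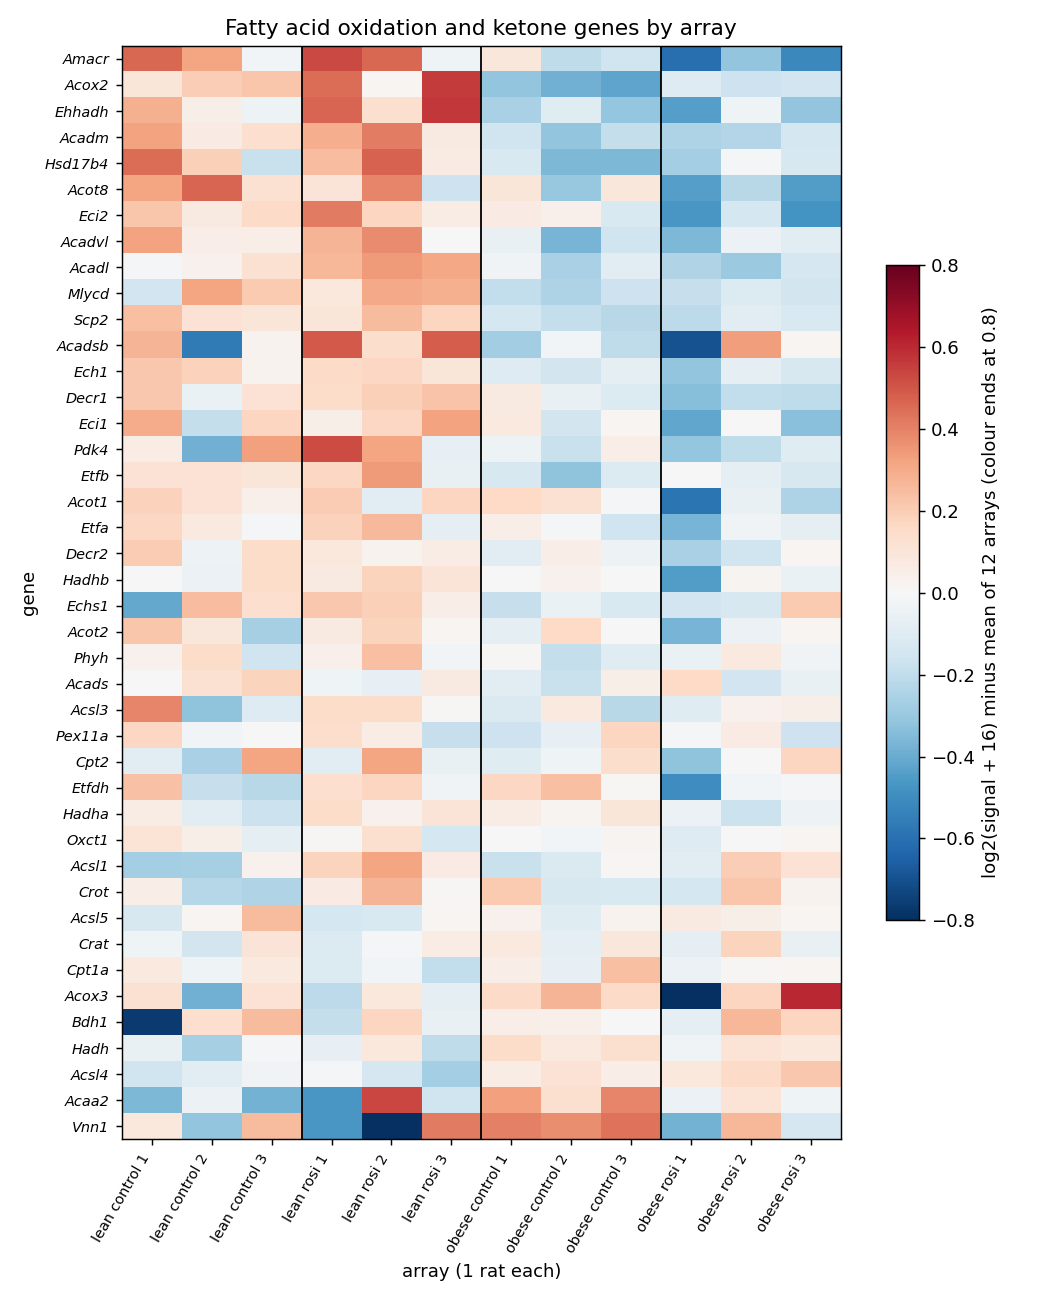
Deviation of each tested member (vertical axis, ordered from the lowest to the highest obese against lean change) from its mean over the 12 arrays, in log2 units of signal + 16, for each array (horizontal axis). Blue is lower and red higher, as the colour bar shows; the called genes near the top are mostly red in lean and blue in obese columns, and obese rosiglitazone replicate 1 is blue for most genes.

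Rosiglitazone against control diet within a body type called 0 members in limma. In lean rats 0.00537% of all probe sets were called, and 2 of 42 members had an unadjusted p under 0.05, where 4.79% of all probe sets did. A change below 0 was seen for 12 members, against 49.8% of all probe sets, but for 20 without lean rosiglitazone replicate 2. Arrays on the 2 diets did not overlap for 2 members that were higher on rosiglitazone and 0 that were lower, against 4.1% and 4.44%. Those of smallest p were Acsl1, Acadl and Ehhadh. Acsl1 had signals of 2694, 2699.97 and 3339 in lean rats on control diet and 3678, 4057 and 3400.2 on rosiglitazone. These did not overlap, with a change of 0.35 (adjusted p = 0.981). Acadl, whose signals are given above, also lay higher in all 3 lean rats on rosiglitazone, with a change of 0.26 (adjusted p = 0.981). Ehhadh had a change of 0.29 (adjusted p = 0.981).

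In obese rats 0.0698% of all probe sets were called, none of them a member, and 5 members had an unadjusted p under 0.05, against 4.92% of all probe sets. The smallest belonged to Eci2, at -0.36 (adjusted p = 0.656), to Acot1, at -0.38 (adjusted p = 0.669), and to Amacr, at -0.39 (adjusted p = 0.914). All 3 lay lower in each obese rat on rosiglitazone than in each on control diet, and so did 8 members in total, with 1 higher, against 6.34% and 5.56% of all probe sets. A change below 0 was seen for 25 of 42 members, against 50.4% of all probe sets, but for 20 without obese rosiglitazone replicate 1. Over both body types 0.0591% of probe sets and 0 members were called, and 3 members had an unadjusted p under 0.05, against 5.08%. Acsl1 had the smallest of these, at 0.26 (adjusted p = 0.582), followed by Acot8 at -0.26 (adjusted p = 0.952) and Acot1 at -0.20 (adjusted p = 0.96).

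How far the effect of rosiglitazone differed between lean and obese rats, which is also the difference between the diets in the obese against lean contrast, was tested as an interaction and called for 0 members and for 0% of all probe sets in limma. An unadjusted p under 0.05 was found for 5 members, against 4.31% of all probe sets. The 3 of smallest p were Acadl at -0.35 (SE 0.12, adjusted p = 0.992), Eci2 at -0.43 (SE 0.16, adjusted p = 0.992) and Hadha at -0.31 (SE 0.12, adjusted p = 0.992). The median difference over members was -0.12 and that over all probe sets 0.00. Without obese rosiglitazone replicate 1 the members' median was -0.014, and without lean rosiglitazone replicate 2 it was -0.063. In 31 of 42 members the drug effect was lower in obese than in lean rats, against 50.6% of all probe sets. That count was 24 of 42 without obese rosiglitazone replicate 1. Of the 42, 16 had a positive effect in lean and a negative one in obese rats, against 25.5% of all probe sets, with 3 the other way round. None of these differences passed, so the greater number of calls on rosiglitazone is not shown to differ from that on control diet.

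**Figure D4:**
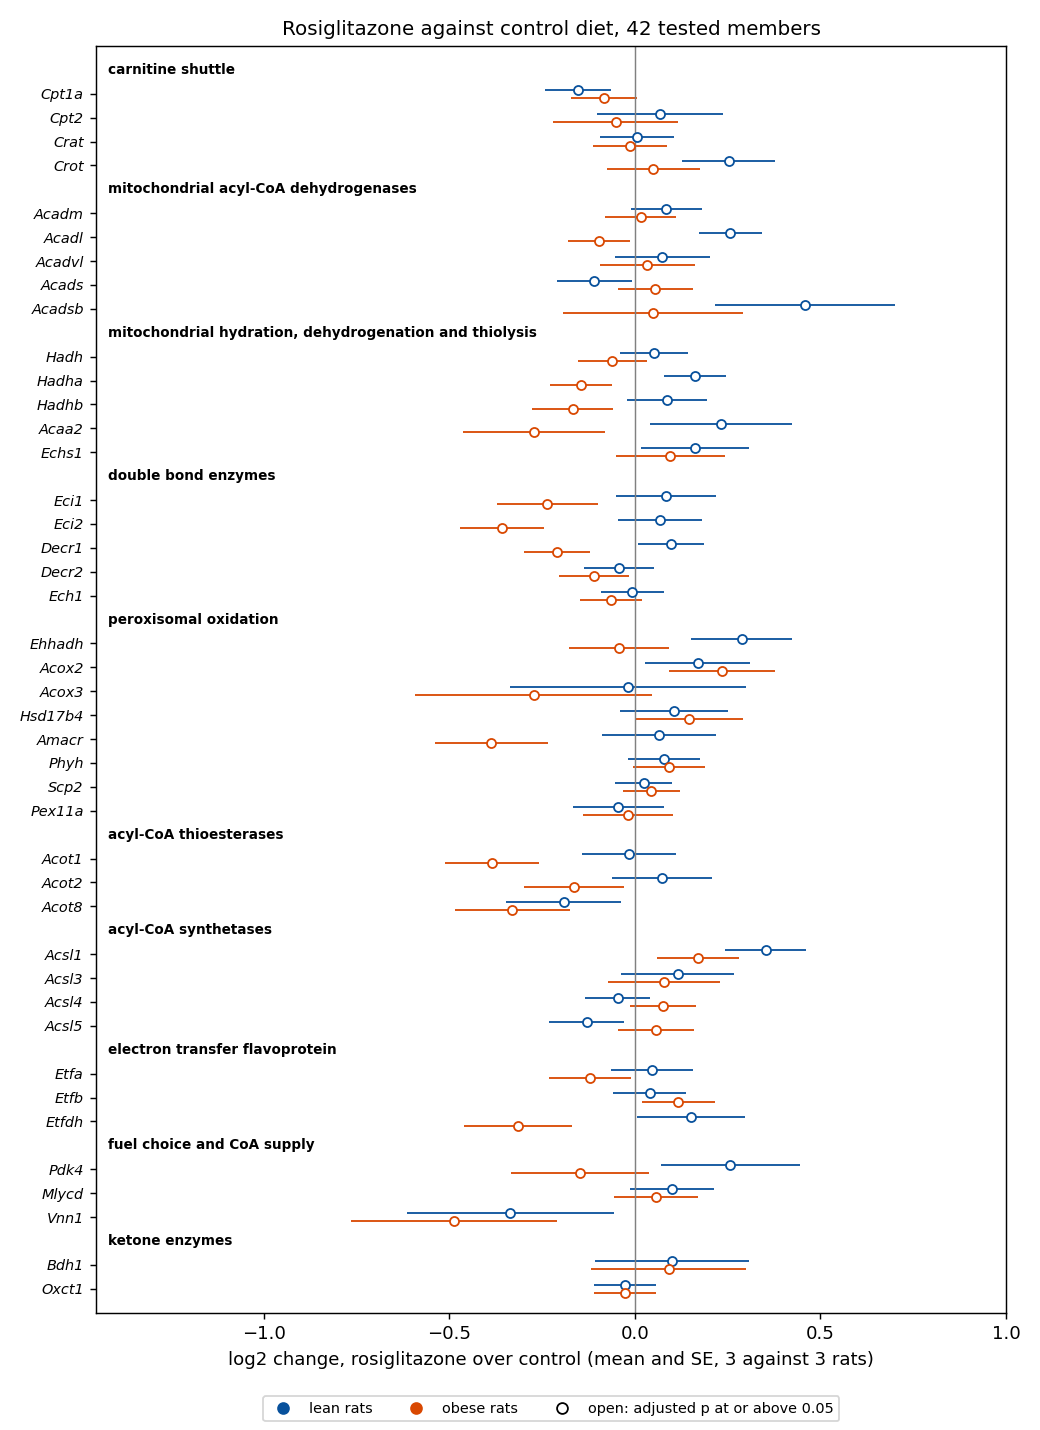
Log2 change of each tested member on rosiglitazone against control diet (horizontal axis, log2 units), in lean and in obese rats, with members on the vertical axis in order of role. Bars give the SE of the fit; every symbol is open, since no member passed at an adjusted p under 0.05.

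Other genes of the same pathways, and markers of cell types, were read from lists of their own. Over both diets, 6.62% of all probe sets were called lower and 7.69% higher, the share to set beside each list below. Of 44 tested genes of oxidation, ketone metabolism and its control outside the 43, 11 fell and 4 rose in obese rats over both diets. Their median change was -0.021. The 6 of smallest p among those called were Pecr, Acsm2, Hsd17b10, Acsm1, Ucp2 and Cyp4a3. Pecr, the peroxisomal trans-2-enoyl-CoA reductase of chain elongation, had signals of 8556, 6849 and 5036 in lean and 2588, 2453 and 2407 in obese rats on control diet, and 6641, 8173 and 4628 in lean and 2473, 2927 and 3242 in obese rats on rosiglitazone. No obese array came near a lean array, with a change of -1.28 (adjusted p = 0.000103). Acsm2 and Acsm1, mitochondrial medium-chain synthetases of the tubule, fell by 0.53 and 0.45 on the log2 scale. Hsd17b10, a mitochondrial dehydrogenase of branched chains, fell by 0.42, and Cyp4a3, a fatty acid omega-hydroxylase, by 0.37. Ucp2, an inner membrane carrier, rose by 0.56 (adjusted p = 0.00161). Under quantile normalization 11 fell and 1 rose. With the spike-in class as a term 8 fell and 2 rose, and within the lower class 5 fell and 1 rose.

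Of 15 peroxisome assembly and membrane genes, 3 fell and 1 rose over both diets, against 6.62% and 7.69% of all probe sets. With the spike-in class as a term 2 fell and 1 rose. Pxmp4, a peroxisomal membrane protein, had signals of 945, 1568 and 1621 in lean and 375, 352 and 369 in obese rats on control diet, and 823, 945 and 1125 in lean and 394, 388 and 324 in obese rats on rosiglitazone. The obese arrays lay far below the lean arrays on both diets, with a change of -1.59 (adjusted p = 3.68e-06), and a second probe set of the gene changed by -2.24 (adjusted p = 2.08e-07). Pxmp2, a membrane channel, changed by -0.48 (adjusted p = 0.00107) and Pex2, an assembly factor, by 0.47 (adjusted p = 0.00788). Catalase (Cat) changed by -0.31 (adjusted p = 0.0473), and it did not pass in 16 of 22 alternatives.

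Markers of the proximal tubule, the segment with the most fatty acid oxidation, moved with body type as the members did. Of 23 tested markers 13 fell and 2 rose in obese rats over both diets, against 6.62% and 7.69% of all probe sets. The markers' median change was -0.37, and under quantile normalization 9 fell and 2 rose with a median of -0.081. Summed signals over 24 markers lay between 159908 and 198312 in lean rats on control diet and between 167400 and 199841 on rosiglitazone. In obese rats they lay between 136248 and 153933 on control diet and between 133882 and 139917 on rosiglitazone, so lean and obese arrays did not overlap. Slc22a7, an organic anion transporter, fell by 1.29 and Lrp2, the endocytic receptor megalin, by 0.37. The call of Lrp2 was lost under quantile normalization with the spike-in class as a term. The 2 that rose were Slc5a2, by 2.56, and Slc7a7, by 1.06. Neither passed with the class as a term, and the call of Slc5a2 was lost in 13 of 22 alternatives. With the class as a term 11 of the 23 fell and 0 rose, and within the lower class 9 fell and 0 rose. Of 13 markers of the distal tubule and collecting duct 6 rose and 1 fell, against 5 and 1 with the class as a term and 2 and 0 within the lower class. The part of these shifts in the members' lower signals was not tested.

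Adipose tissue, brown fat above all, also oxidizes fatty acids, and its markers differed between the groups. Ucp1, the uncoupling protein that defines brown fat, had signals of 776 ± 133 in lean and 14.6 ± 15.8 in obese rats on control diet (SD, n = 3), and of 3109 ± 2056 and 144 ± 71 on rosiglitazone. Of 5 tested brown fat markers 3 fell in obese rats over both diets, and 3 also did with the spike-in class as a term and within the lower class. Summed over 7 markers, signals were 1773 to 2771 in lean and 943 to 1014 in obese rats on control diet, and 4543 to 11263 and 1135 to 1533 on rosiglitazone. Of 11 tested fat cell markers 7 fell and 1 rose in obese rats, against 5 and 1 with the class as a term and 6 and 1 within the lower class. In lean rats and in obese rats alike, all 5 brown fat and all 11 fat cell markers had higher means on rosiglitazone. In limma 0 of them were called in lean rats and 1 in obese rats, Fabp4, at 3.03 (adjusted p = 0.0185). Over both body types Fabp4 and Ucp1 were called, at 2.42 (adjusted p = 0.00324) and 2.10 (adjusted p = 0.0456). In these 3 comparisons 0 members were called, where 0.00537%, 0.0698% and 0.0591% of all probe sets were. The part of fat in the difference between body types was not tested.

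**Figure D5:**
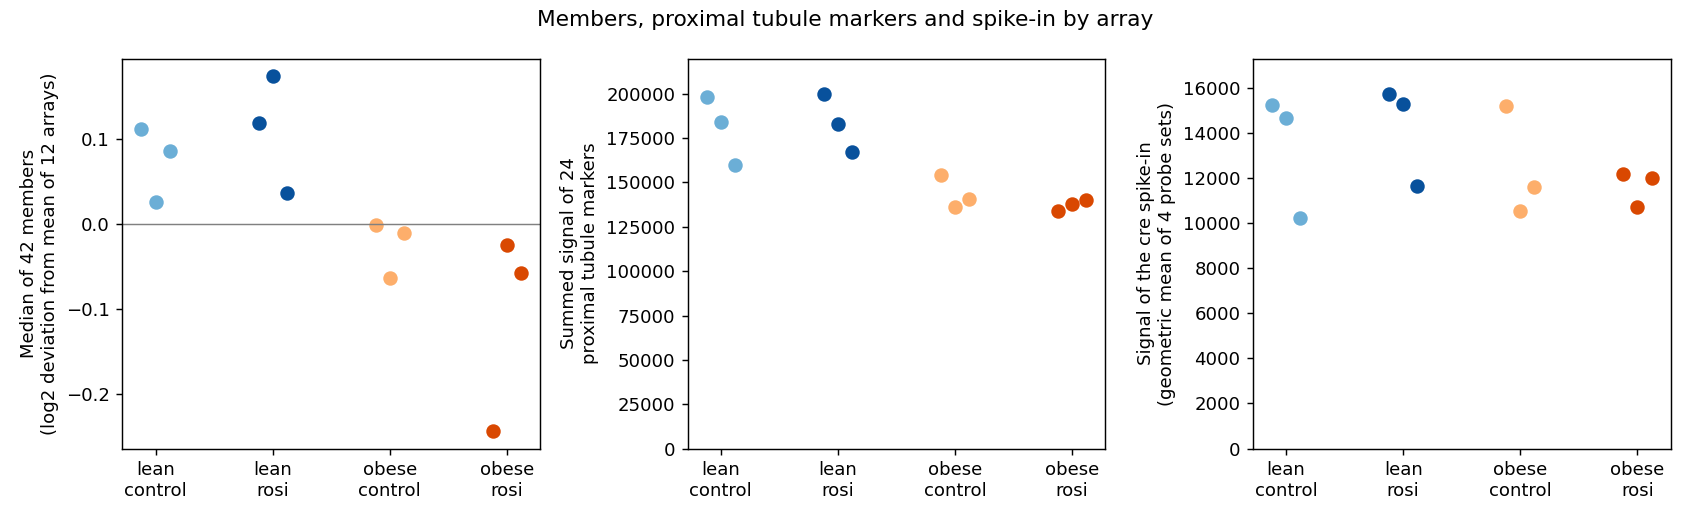
For each array (points, by group on the horizontal axes), the median deviation of the members in log2 units, the summed signal of proximal tubule markers and the mean signal of the cre spike-in on the vertical axes. The members' median lies between -0.24 and -0.00 in obese and between 0.025 and 0.17 in lean arrays, and obese rosiglitazone replicate 1 is the lowest.

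Leukocyte, endothelial and glomerular markers gave few calls over both diets, where 6.62% of all probe sets were called lower and 7.69% higher. Of 5 leukocyte markers 1 rose, Lyz2, a call lost in 11 of 22 alternatives, and 1 fell, of 5 endothelial markers 0 passed in limma, with 2 at an unadjusted p under 0.05, and of 4 glomerular markers 1 rose, Wt1, a call lost in 12 of 22. Both tested red blood cell genes rose over both diets, Hbb by 0.75 and Alas2 by 0.75. On rosiglitazone they rose by 1.55 and 1.20, while on control diet their values were -0.047 (adjusted p = 0.96) and 0.29 (adjusted p = 0.603). The call of Hbb over both diets was lost in 11 of 22 alternatives. The 1 tested marker of skeletal muscle and the 1 of the adrenal cortex did not pass, at unadjusted p-values above 0.05.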

How the data were processed

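Kidney RNA of 12 rats was hybridised to 1 array each. The deposited values are linear signal intensity, which the authors computed with MAS5, per the submitters' processing notes, which give no version. The scaling target is not given in the sources used here. Trimmed array means, leaving out 2% of probe sets at each end, lay between 500.12 and 500.15, so the values were used without further normalization. Of 31099 probe sets 57 controls were left out. Signals became log2(signal + 16), and 18625 probe sets with a mean of at least the 40th percentile, 7.32, were tested.

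Gene names came from GEO's platform annotation: 20826 probe sets had 1 symbol, 436 several and 9780 none, and 20758 had a gene ID in the GRCr8 gene table. A pair of probe sets shared between members and related genes was not used. All arrays entered 1 model with 4 group means and 8 residual degrees of freedom (R 4.3.3 and limma 3.58.1, eBayes with trend and robust settings, which use statmod 1.5.0), with a call at an adjusted p under 0.05. The procedure was tested on simulated data. The members and gene lists were chosen with earlier results of these data known. Signals of each array are given for called members (the 14 of smallest p, and Acsl4). The other tested members are given by their changes, some with signals. The 3 of smallest p are named where none was called, and up to 6 called genes of the other lists. The spike-in class of an array was set by the largest gap between arrays in the mean log2 signal of cre. Alternatives changed the offset, filter, normalization, variance model, probe set choice, replicate block, spike-in class and the arrays included.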

Additional observations from a re-analysis of the deposited data

How the results depend on the processing

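The 3 replicates a group and MAS5 noise in dim probe sets limit these counts, and no alternative turned the direction of a called member. On control diet, the 3 calls became 1 under median centring and 1 with plain eBayes. Under quantile normalization 1 member was called lower on this diet, Acox2 at -0.60 (adjusted p = 0.0236). In the same setting 1 was called higher, Hadh at 0.33 (adjusted p = 0.0319). On rosiglitazone, the 8 calls became 3 under median centring, 5 with plain eBayes, 2 within the lower class, and 5 under quantile normalization with the class as a covariate, an alternative added after the data were seen. Over both diets, the 15 calls became 6 within the lower class. Leaving out 1 array at a time gave 12 to 17 calls over both diets, 3 to 8 on rosiglitazone and 0 to 4 on control diet. The rosiglitazone comparisons and the interaction had 0 called members under every alternative run. With the replicate number as a block, 15 members were called over both diets, 7 on rosiglitazone and 2 on control diet. The correlations of same-numbered arrays ran from -0.18 to 0.18 and 5 of 12 arrays deviated most like their own number, so the numbers are not taken as pairs. Over all probe sets, median centring called 516 in place of 882 on control diet and 493 in place of 932 on rosiglitazone. Plain eBayes called 548 and 589 on these diets. Within the lower class the counts were 164, 533 and, over both diets, 1147 in place of 2665, and within the higher class 52 on control diet. Within a class an arm can hold 1 array, assumed to vary like the others: the lower class has 1 lean array on each diet and the higher class 1 obese array on control diet. Calls lost there say nothing about stability. Leaving out an array also tests fewer samples. The cause of the other changes was not tested.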
